A study of Mus musculus with 22 samples.

Results

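A set of 10 genes of the oxidative stress defence that the transcription factor NRF2 is known to drive, Hmox1, Nqo1, Gclc, Gclm, Srxn1, Txnrd1, Slc7a11, Sod2, Prdx1 and Cat, were followed in bone marrow-derived macrophages (BMDM). They were chosen by name for this role, and all 10 were among the 22413 genes that were tested on the array. BMDM were grown with M-CSF from femur bone marrow of male C57BL/6 mice (C57BL/6J in the study's methods) aged 10 to 14 weeks, which were wild-type (wt), lacked the kinase MK2 in the whole animal (MK2-/-) or lacked both MK2 and its relative MK3 (MK2/3-/-). The cells received 100 ng/ml LPS, the bacterial ligand of Toll-like receptor 4, or medium without it for 360 min. There were 3 arrays of wt BMDM with LPS and 4 with medium, 4 of MK2-/- BMDM with LPS and 4 with medium, and 4 of MK2/3-/- BMDM with LPS and 3 with medium. MK2 and MK3 are activated by p38 MAPK, and no group of cells lacking MK3 alone was among these arrays.

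In resting cells the adaptor Keap1 holds NRF2, the product of Nfe2l2, in the cytosol and has it degraded. Electrophiles and oxidants modify Keap1, and NRF2 then enters the nucleus, pairs with a small Maf protein and binds the antioxidant response element (ARE) of genes that make glutathione, reduce thioredoxin, break down haem and detoxify quinones. Sod2 and Cat belong to the same defence, but Sod2 is best known as a target of NF-kappaB, which LPS activates in macrophages.

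The promoters show which members carry the letters of an ARE next to their start. In the RefSeq table of GRCm38.p6 promoters, which runs from 250 bases before to 50 bases after each start, 8 of the 10 members had an entry, with 10 windows between them, and Hmox1 and Gclc had none. Both strands were searched for TGACNNNGC, the ARE core, and for TGANTCA, the site of AP-1, which can overlap the ARE core. The ARE core was present in windows of 4 members, Gclm, Srxn1, Txnrd1 and Prdx1, and in 12.4% of 32851 promoters of the same length. The AP-1 letters were present in 2 members, Srxn1 and Prdx1, and in 7.81% of promoters. The windows of Nqo1, Slc7a11, Sod2 and Cat held neither. The stretches below are shown because they hold these matches, which are in capitals (5′ to 3′ along the plus strand, where an ARE core of the other strand appears as its reverse complement), and a match is a description of letters only.
Gclm, ARE core, chr3:122245412-122245441: cgctcccgggcGCACCGTCAactctcacga
Srxn1, AP-1, chr2:152105410-152105439: cctcggagggccTGAGTCAccacgctgtgc
Srxn1, AP-1, chr2:152105467-152105496: gcaaattcacccTGAGTCAgcggccgggcg
Txnrd1, ARE core, chr10:82859103-82859132: actggatttttGCTTTGTCAttctgacacg
Prdx1, AP-1, chr4:116685350-116685379: taaacgaggaaaTGACTCAaagggcagtgc
Prdx1, ARE core overlapping AP-1, chr4:116685455-116685484: ccagggaaagcGCTGAGTCAtcccccgtag
The last stretch of Prdx1 holds both motifs in the same letters, and the ARE core of Srxn1, which is not shown, lay 28 bases after its start.

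All signals are given as log2 of the quantile-normalised array signal, so that 1 unit is a doubling, and they compare arrays for 1 gene but not genes with each other, because probes differ in brightness. Between 61.1% and 82.8% of probes were well above background on an array. Each genotype was hybridised on a slide of its own, so that differences between genotypes at a given treatment cannot be told apart from the slide, whereas LPS and medium of a genotype shared a slide. Mapkapk2, the MK2 gene, gave 14.28 to 15.33 in wt BMDM with LPS, 11.25 to 11.95 in MK2-/- and 10.86 to 11.22 in MK2/3-/- BMDM with LPS, and its medium arrays had the same order. Mapkapk3, the MK3 gene, gave 7.65 to 8.55 in MK2/3-/- BMDM with LPS against 11.92 to 12.57 in MK2-/- and 11.94 to 12.23 in wt BMDM. With medium the gap was smaller, at 10.94 to 11.40 in MK2/3-/-, 12.39 to 13.16 in MK2-/- and 12.83 to 13.42 in wt BMDM. The probe of each deleted gene was still above background on the deficient arrays, and whether it lies in a deleted part of the gene was not analysed here. All 8 genes of a list of LPS-inducible genes rose in each genotype, but the wt medium arrays were raised over this list. Their means were 7.32 to 11.13, highest on wt medium array 4. The MK2-/- medium arrays had 6.17 to 6.75 and the MK2/3-/- medium arrays 6.62 to 6.96. The part of this in the LPS differences of wt BMDM, and in their comparison with the other genotypes, was not tested. The MK2-/- arrays numbered 3, labelled male, had low Y-linked signal, with means of 2.07 and 2.33 against at least 6.86 elsewhere. No member's call of LPS against medium changed without wt medium array 4 or without these MK2-/- arrays, but without the latter Prdx1 in MK2/3-/- against wt BMDM with LPS and Txnrd1 in MK2/3-/- against MK2-/- BMDM with LPS were no longer called (adjusted p = 0.0514 and 0.0508). Of 8 macrophage markers 7 were tested, with means of 14.33 to 15.51 on every array. Means were 5.82 to 10.66 for 5 fibroblast, 7.01 to 10.06 for 6 neutrophil and 7.01 to 9.19 for 5 dendritic cell markers. Means of different lists cannot be set against each other, because probes differ in brightness. Bulk RNA cannot tell fewer cells of a type from less RNA per cell.

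LPS split the 10 genes. Slc7a11 and Sod2 rose in every genotype, Gclm and Cat fell in every genotype, Gclc and Srxn1 fell in wt and MK2/3-/- BMDM, Txnrd1 rose in wt and MK2-/- BMDM, Hmox1 fell in MK2/3-/- BMDM, and Nqo1 and Prdx1 did not pass in any genotype when arrays were compared without pairing. In wt BMDM 3 members were higher and 4 lower (limma, adjusted p below 0.05 over all genes tested), where 18.6% of all genes tested were higher and 23.5% lower. In MK2-/- BMDM 3 were higher and 2 lower, where 17.5% of all genes were higher and 27.1% lower. In MK2/3-/- BMDM 2 were higher and 5 lower, where 20.2% of all genes were higher and 27.9% lower. Without overlap of arrays, 3 members were higher and 5 lower in wt BMDM, beside 22.1% and 26.6% of all genes. In MK2-/- BMDM these were 3 and 2, beside 17.4% and 24.4%, and in MK2/3-/- BMDM 2 and 6, beside 21.4% and 28.8%. The median log2 difference of the 10 members was -0.85 in wt, -0.59 in MK2-/- and -1.50 in MK2/3-/- BMDM, beside medians over all genes of -0.04, -0.01 and 0.02. When each array was scaled to its 75th percentile in place of quantile normalisation, the median of all genes lay at 0.30, 0.28 and 0.29. The share of higher genes among those called went from 44.2% to 60.5% in wt, from 39.3% to 53.6% in MK2-/- and from 42% to 54.1% in MK2/3-/- BMDM. The members' median under that scaling is not given here. In wt BMDM Hmox1 then went from -0.84 to -0.22, Prdx1 from -0.87 to -0.07 and Txnrd1 from 0.83 to 1.52.

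**Figure D1:**
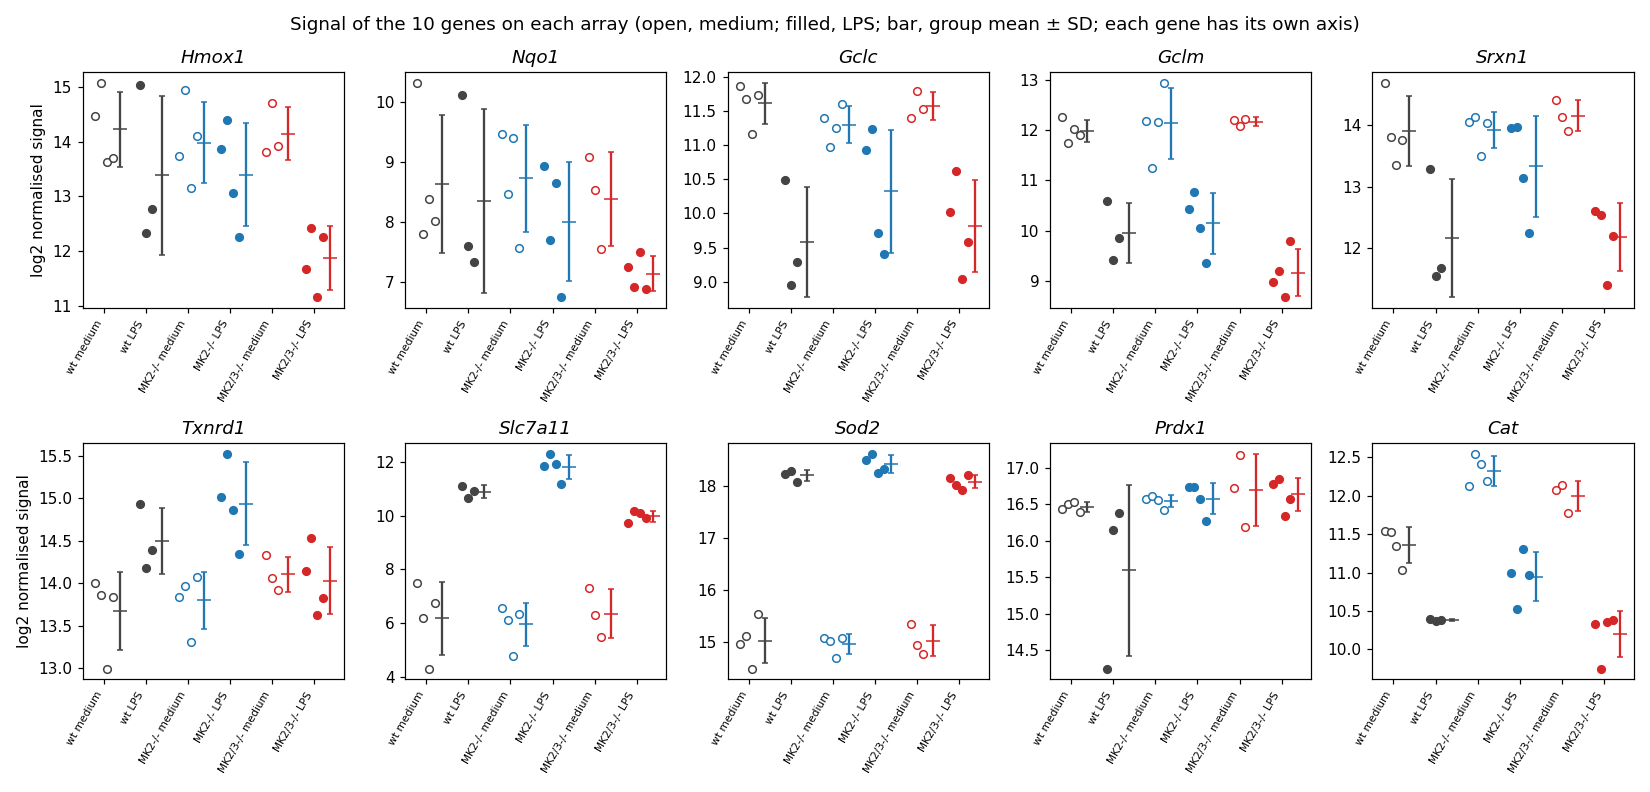
Log2 quantile-normalised signal (y axis) of the 10 members on each of the 22 arrays by genotype and treatment (x axis), with open points for medium, filled points for LPS and bars for the mean ± SD of a group. The LPS arrays of Slc7a11 and Sod2 lie above the medium arrays in every genotype, those of Gclm and Cat lie below, and Prdx1 has a single low array at 14.25.

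Slc7a11 encodes the cystine-importing subunit of the cystine/glutamate exchanger, which supplies the cysteine for glutathione. In wt BMDM it gave 7.50, 6.19, 4.30 and 6.75 with medium, the array at 4.30 being not above background, and 11.12, 10.67 and 10.92 with LPS. The MK2-/- arrays gave 6.57, 6.12, 4.76 and 6.35 with medium and 11.86, 12.31, 11.93 and 11.20 with LPS. The MK2/3-/- arrays gave 7.30, 6.30 and 5.47 with medium and 9.72, 10.20, 10.09 and 9.92 with LPS. The LPS arrays lay above the medium arrays in each genotype without overlap, and among LPS arrays those of MK2-/- BMDM were highest and those of MK2/3-/- BMDM lowest, again without overlap. The rise was 26.3-fold in wt (log2 4.72 ± 0.57 SE, adjusted p = 2.3e-06), 58.5-fold in MK2-/- (5.87 ± 0.53, adjusted p = 2.8e-08) and 12.4-fold in MK2/3-/- BMDM (3.63 ± 0.57, adjusted p = 3.0e-05). With normexp background correction, which lifts dim signals such as those of the medium arrays, the log2 rises were smaller but called, at 3.64, 4.77 and 2.74, and without wt medium array 3, the array not above background, the wt rise was 4.09. Its partner subunit Slc3a2, the heavy chain that brings the exchanger to the membrane, rose in MK2-/- BMDM by 0.75 and gave 0.40 in wt and 0.02 in MK2/3-/- BMDM, which did not pass, although with 75th percentile scaling both passed at 1.25 and 0.97.

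Gclc and Gclm encode the catalytic and the modifier subunit of glutamate-cysteine ligase, the rate-limiting enzyme of glutathione synthesis. Gclm gave 12.26, 11.74, 12.01 and 11.90 in wt BMDM with medium and 10.59, 9.43 and 9.86 with LPS. With MK2 deleted, the signals were 12.18, 11.24, 12.16 and 12.94 with medium and 10.44, 10.76, 10.06 and 9.36 with LPS. With both kinases deleted, the signals were 12.20, 12.07 and 12.23 with medium and 9.00, 9.21, 8.68 and 9.81 with LPS. Every LPS array lay below every medium array of its genotype. Gclm fell 4.05-fold in wt (log2 -2.02 ± 0.37 SE, adjusted p = 0.000229), 3.93-fold in MK2-/- (-1.97 ± 0.34, adjusted p = 9.2e-05) and 7.95-fold in MK2/3-/- BMDM (-2.99 ± 0.37, adjusted p = 1.8e-06). Gclm, whose window held an ARE core, was thus lower after LPS in all 3 genotypes.

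Gclc gave 11.86, 11.67, 11.17 and 11.73 in wt BMDM with medium and 10.49, 8.95 and 9.29 with LPS. For MK2-/- BMDM the values were 11.39, 10.97, 11.24 and 11.60 with medium and 10.93, 11.23, 9.71 and 9.41 with LPS. For MK2/3-/- BMDM the values were 11.40, 11.79 and 11.52 with medium and 10.01, 10.63, 9.05 and 9.58 with LPS. Medium and LPS arrays did not overlap in wt and MK2/3-/- BMDM, whereas the second MK2-/- LPS array, at 11.23, lay among the medium arrays. Gclc fell 4.08-fold in wt (log2 -2.03 ± 0.43 SE, adjusted p = 0.000888) and 3.37-fold in MK2/3-/- BMDM (-1.75 ± 0.43, adjusted p = 0.0023). The difference of -0.98 in MK2-/- BMDM did not pass (adjusted p = 0.0546), but it passed without MK2-/- LPS array 1 (-1.18, adjusted p = 0.0333), without MK2-/- LPS array 2 (-1.28, adjusted p = 0.0149), and without wt LPS array 1, MK2/3-/- LPS array 2 or MK2/3-/- LPS array 3, which add to the shared spread alone (adjusted p = 0.0364, 0.0441 and 0.0447). With the letter of the array names as a replicate block it also passed (adjusted p = 0.0497). In wt and MK2/3-/- BMDM both ligase subunits thus fell after LPS while Slc7a11 rose.

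Txnrd1 encodes the cytosolic thioredoxin reductase, which uses NADPH to keep thioredoxin reduced. It gave 14.00, 13.85, 12.99 and 13.84 in wt BMDM with medium and 14.93, 14.18 and 14.38 with LPS. MK2-/- BMDM had 13.84, 13.97, 13.31 and 14.07 with medium and 15.02, 15.52, 14.86 and 14.34 with LPS. MK2/3-/- BMDM had 14.33, 14.07 and 13.92 with medium and 14.15, 14.53, 13.63 and 13.82 with LPS. The LPS arrays lay above the medium arrays in wt and MK2-/- BMDM, and the treatments overlapped in MK2/3-/- BMDM. Txnrd1 rose 1.77-fold in wt (log2 0.83 ± 0.30 SE, adjusted p = 0.0339) and 2.20-fold in MK2-/- BMDM (1.14 ± 0.28, adjusted p = 0.0023), and the difference in MK2/3-/- BMDM was -0.07 (adjusted p = 0.872). The call in wt was lost without wt LPS array 1 (0.61, adjusted p = 0.155), without wt LPS array 3 (0.88, adjusted p = 0.0595) and without wt medium array 3 (0.60, adjusted p = 0.120). The direction in MK2/3-/- BMDM turned with 75th percentile scaling to 0.77 (adjusted p = 0.0258), which is 0.48 above the median of all genes, and the rises in wt and MK2-/- BMDM were then 1.52 and 1.92.

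Srxn1 encodes sulfiredoxin, which repairs over-oxidised peroxiredoxins, and its promoter held both motifs. It gave 14.69, 13.81, 13.35 and 13.76 in wt BMDM with medium and 13.28, 11.54 and 11.67 with LPS. The MK2-/- arrays gave 14.05, 14.14, 13.50 and 14.03 with medium and 13.95, 13.98, 13.14 and 12.25 with LPS. The MK2/3-/- arrays gave 14.41, 14.14 and 13.91 with medium and 12.60, 12.54, 11.40 and 12.19 with LPS. Medium and LPS arrays were apart in wt and MK2/3-/- BMDM and overlapped in MK2-/- BMDM. Srxn1 fell 3.33-fold in wt (log2 -1.74 ± 0.45 SE, adjusted p = 0.0043) and 3.92-fold in MK2/3-/- BMDM (-1.97 ± 0.45, adjusted p = 0.0012). The difference in MK2-/- BMDM was -0.60 (adjusted p = 0.268), and with 75th percentile scaling it was 0.07, which is -0.22 relative to the median of all genes.

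Prdx1 encodes an abundant peroxiredoxin, a thiol peroxidase that sulfiredoxin repairs. In wt BMDM it gave 16.43, 16.51, 16.53 and 16.39 with medium and 14.25, 16.15 and 16.38 with LPS. With MK2 deleted, the signals were 16.57, 16.61, 16.56 and 16.42 with medium and 16.73, 16.73, 16.57 and 16.27 with LPS, and in MK2/3-/- BMDM 16.72, 17.17 and 16.19 with medium and 16.77, 16.85, 16.34 and 16.57 with LPS. Apart from wt LPS array 1 at 14.25, the arrays of all groups lay within 16.15 and 17.17. The LPS difference was -0.87 in wt (adjusted p = 0.0526), 0.04 in MK2-/- (adjusted p = 0.946) and -0.06 in the cells lacking both kinases (adjusted p = 0.905). Without the low array the wt difference was -0.20, and with 75th percentile scaling the 3 differences were -0.07, 0.76 and 0.89. Without wt LPS array 2 or 3, which leaves the low array with more weight, the wt difference passed at -1.15 (adjusted p = 0.0267) and -1.26 (adjusted p = 0.00989), and it also passed without MK2/3-/- medium array 3 (adjusted p = 0.0496). A dimmer probe of Prdx1 went the other way on the same array, with 12.65 on wt LPS array 1 against 11.84 and 12.04 on the other two, and its wt LPS difference was -0.03.

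Hmox1 encodes the inducible haem oxygenase, which cleaves haem to biliverdin, iron and carbon monoxide. It gave 14.48, 15.08, 13.64 and 13.70 in wt BMDM with medium and 15.03, 12.34 and 12.78 with LPS. For MK2-/- BMDM the values were 13.73, 14.94, 13.16 and 14.10 with medium and 13.87, 14.40, 13.05 and 12.26 with LPS. With both kinases deleted, the signals were 13.81, 14.71 and 13.92 with medium and 11.67, 12.43, 11.16 and 12.26 with LPS. The treatments overlapped in wt BMDM, where 1 LPS array was nearly as high as the highest medium array, and in MK2-/- BMDM, and they were apart in MK2/3-/- BMDM. Hmox1 fell 4.81-fold in MK2/3-/- BMDM (log2 -2.27 ± 0.61 SE, adjusted p = 0.0043). Neither -0.84 in wt (adjusted p = 0.29) nor -0.58 in MK2-/- BMDM (adjusted p = 0.437) passed, but without wt LPS array 1 the wt difference passed at -1.66 (adjusted p = 0.0261). A second probe of Hmox1 gave -0.19 in wt, -0.01 in MK2-/- and -1.17 in MK2/3-/- BMDM, the last with an adjusted p of 0.082, so that the call rests on 1 of its probes. With 75th percentile scaling the MK2-/- difference was 0.08, which is -0.21 relative to the median of all genes.

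Nqo1 encodes a quinone reductase that is widely used as a readout of NRF2. It gave 10.32, 7.81, 8.38 and 8.02 in wt BMDM with medium and 10.11, 7.61 and 7.34 with LPS. MK2-/- BMDM had 9.47, 8.47, 9.39 and 7.58 with medium and 8.93, 7.71, 8.65 and 6.75 with LPS, and in MK2/3-/- BMDM 9.08, 8.53 and 7.55 with medium and 7.25, 6.93, 7.50 and 6.90 with LPS. The wt arrays numbered 1 were high in both treatments, and in MK2/3-/- BMDM every LPS array lay below every medium array. These wt arrays were also those with the highest fibroblast marker means, at 10.66 with medium and 9.93 with LPS, and the part of other cells in the Nqo1 signal was not tested. The LPS differences of -0.28 in wt (adjusted p = 0.79), -0.72 in MK2-/- (adjusted p = 0.407) and -1.24 in the cells lacking both kinases (adjusted p = 0.159) did not pass. With the letter of the array names as a replicate block, a fit chosen after seeing the data in which LPS and medium arrays of a letter had mice of the same age, Nqo1 passed in MK2-/- BMDM at -0.72 (adjusted p = 0.0144) and in MK2/3-/- BMDM at -1.36 (adjusted p = 0.000878), and with the replicate number as the block it passed in MK2/3-/- BMDM alone (-1.16, adjusted p = 0.0137). Without wt LPS array 1, the wt difference was -1.16, also not called, and it was positive without wt LPS array 2 (0.09), wt LPS array 3 (0.22) or wt medium array 1 (0.28).

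Sod2 encodes the mitochondrial superoxide dismutase that turns superoxide into hydrogen peroxide. It gave 14.95, 15.11, 14.48 and 15.54 in wt BMDM with medium and 18.25, 18.29 and 18.09 with LPS. The MK2-/- arrays gave 15.06, 15.02, 14.68 and 15.07 with medium and 18.51, 18.63, 18.25 and 18.34 with LPS, and in MK2/3-/- BMDM 15.35, 14.94 and 14.76 with medium and 18.15, 18.03, 17.94 and 18.22 with LPS. All LPS arrays lay above all medium arrays, and wt medium array 4, the one with the highest LPS-inducible signal in medium, was the highest medium array. Sod2 rose 9.13-fold in wt (log2 3.19 ± 0.21 SE, adjusted p = 1.2e-09), 11.1-fold in MK2-/- (3.48 ± 0.19, adjusted p = 7.1e-11) and 8.39-fold in MK2/3-/- BMDM (3.07 ± 0.21, adjusted p = 8.7e-10), and with 75th percentile scaling the log2 rises were 3.90, 4.37 and 4.08.

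Cat encodes catalase, the peroxisomal enzyme that splits hydrogen peroxide. It gave 11.54, 11.52, 11.35 and 11.04 in wt BMDM with medium and 10.39, 10.36 and 10.38 with LPS. With MK2 deleted, the signals were 12.12, 12.55, 12.42 and 12.20 with medium and 10.99, 10.52, 11.31 and 10.97 with LPS, and in MK2/3-/- BMDM 12.07, 12.14 and 11.78 with medium and 10.33, 9.75, 10.35 and 10.38 with LPS. LPS arrays were below medium arrays in each genotype, and the medium arrays of both deficient genotypes were above those of wt BMDM. The latter held for 13.1% of all genes in MK2-/- and for 13% in MK2/3-/- BMDM. Cat fell 1.98-fold in wt (log2 -0.98 ± 0.20 SE, adjusted p = 0.000604), 2.59-fold in MK2-/- (-1.37 ± 0.19, adjusted p = 5.1e-06) and 3.47-fold in MK2/3-/- BMDM (-1.80 ± 0.20, adjusted p = 4.7e-07). A second probe of Cat fell in MK2-/- (-0.94, adjusted p = 0.0076) and MK2/3-/- BMDM (-1.51, adjusted p = 0.000274) and gave -0.38 in wt BMDM (adjusted p = 0.33).

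**Figure D2:**
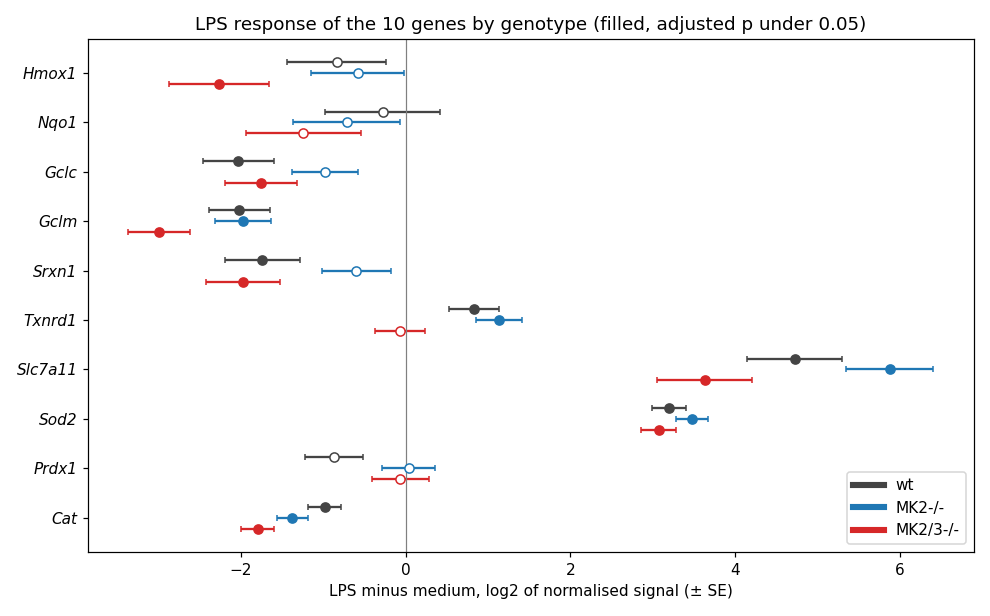
Log2 difference of LPS against medium (x axis) of each member (y axis) in wt, MK2-/- and MK2/3-/- BMDM, with bars of 1 SE and filled points for an adjusted p below 0.05. Slc7a11 and Sod2 lie to the right in all 3 genotypes, Gclm and Cat to the left, and the points of Slc7a11 spread from 3.63 to 5.87.

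Whether the members' levels differed between genotypes after LPS was compared next, and here the slide goes with the genotype. Between MK2-/- and wt BMDM with LPS no member passed (limma), where 11.6% of all genes did, whereas 3 members and 29.5% of all genes had an unadjusted p below 0.05, and 2 members by the t-test of the study's methods without adjustment. Slc7a11 was higher by 0.92 (adjusted p = 0.295) and Cat by 0.57 (adjusted p = 0.0701), each without overlap of the arrays, and Cat passed without MK2-/- LPS array 2 (0.71, adjusted p = 0.0420) or MK2/3-/- LPS array 2 (adjusted p = 0.0498). Arrays lay higher without overlap for 12.5% of all genes and lower for 15.3%. Srxn1 at 1.16 (adjusted p = 0.0951) passed without wt LPS array 1 (1.72, adjusted p = 0.0302) or MK2-/- LPS array 4 (1.52, adjusted p = 0.0391), and Prdx1 at 0.98 (adjusted p = 0.0713) passed without wt LPS array 3 (1.38, adjusted p = 0.0355). Between MK2/3-/- and wt BMDM 1 member passed, where 23.6% of all genes did. This was Prdx1, at 1.04 ± 0.35 SE (adjusted p = 0.0381), which rested on wt LPS array 1: without that array the difference was 0.37 (adjusted p = 0.283), and on the dimmer probe it was 0.48 (adjusted p = 0.12). The Prdx1 call was also lost without MK2/3-/- LPS array 1, 2 or 4 (adjusted p = 0.0787, 0.0835 and 0.0509). Slc7a11 was lower by all arrays in MK2/3-/- than in wt BMDM with LPS, at -0.92 (adjusted p = 0.256), and both differences of Slc7a11 from wt passed with normexp background correction (0.92, adjusted p = 0.0469, and -0.86, adjusted p = 0.0403). Of all genes, 15.8% were lower and 12.4% higher by all arrays in MK2/3-/- BMDM. Hmox1 gave -1.50 (adjusted p = 0.0795), which passed without wt LPS array 2 (-2.03, adjusted p = 0.0374) and was -0.68 without wt LPS array 1.

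Between MK2/3-/- and MK2-/- BMDM with LPS, 3 members were called, all lower in cells that also lacked MK3, where 13.5% of all genes were called. By their mean log2 signal, the dendritic cell, erythroid and B cell marker lists separated the same arrays. The neutrophil, T cell, fibroblast and mast cell or basophil lists overlapped, and the part of other cells in these results was not tested. The dendritic cell list had means of 8.60 to 9.19 in MK2/3-/- and 7.55 to 8.59 in MK2-/- BMDM. The erythroid list, with 3 of 5 genes tested, had 5.46 to 5.95 and 6.32 to 7.17, and the B cell list 5.96 to 6.38 and 5.19 to 5.56. With medium the means of the dendritic cell list overlapped (7.16 to 8.06 and 7.01 to 7.99). Those of the erythroid list (5.844 to 6.107 and 6.112 to 6.365) and the B cell list (6.40 to 6.77 and 5.65 to 6.04) did not. By log2 of the summed signal with LPS, the dendritic cell lists (15.88 to 16.19 and 15.40 to 16.29) and B cell lists (8.47 to 8.79 and 7.91 to 8.59) overlapped. The erythroid lists did not (7.27 to 8.10 and 8.17 to 8.52). Some genes were dim, with Xcr1 well above background on 4 of 22 arrays and Klf1 on 12. Slc7a11 was 3.58-fold lower (log2 -1.84 ± 0.53 SE, adjusted p = 0.0273), with 9.98 ± 0.21 (SD of 4 arrays) against 11.82 ± 0.46 (SD of 4 arrays). Txnrd1 was lower by -0.90 ± 0.28 (adjusted p = 0.0381), with an overlap at 14.34 in MK2-/- and 14.53 in MK2/3-/- BMDM. Cat was lower at -0.75 ± 0.19 (adjusted p = 0.0124), and its second probe gave -0.85 (adjusted p = 0.046). The call of Slc7a11 was lost without MK2-/- LPS array 1 or 2 or MK2/3-/- LPS array 1 or 4, with adjusted p between 0.0525 and 0.0808. That of Txnrd1 was lost without MK2-/- LPS array 1, 2 or 3 or MK2/3-/- LPS array 1, 3 or 4, with adjusted p between 0.0513 and 0.135. Hmox1, Gclm and Srxn1 gave -1.52, -0.98 and -1.15 without passing (adjusted p = 0.0799, 0.0663 and 0.0762), and all 3 passed without MK2-/- LPS array 4 (adjusted p = 0.0392, 0.0244 and 0.0209). Leaving out wt LPS array 1 gave Hmox1 and Srxn1 an adjusted p of 0.0368 and 0.0423, and Gclm passed without MK2-/- medium array 2 (adjusted p = 0.0408) or MK2/3-/- LPS array 4 (adjusted p = 0.0381). Sod2, whose arrays did not overlap, gave -0.35 (adjusted p = 0.251). Without overlap, 3 members (Slc7a11, Sod2 and Cat) were lower and 0 higher, beside 5.67% and 8.62% of all genes.

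In medium, 1 member passed between MK2-/- and wt BMDM, where 8.82% of all genes did. Cat was higher in MK2-/- BMDM by 0.96 ± 0.19 SE (adjusted p = 0.00623), with 12.32 ± 0.19 (SD of 4 arrays) against 11.36 ± 0.23 (SD of 4 arrays), and its second probe gave 0.67 (adjusted p = 0.13). The erythroid marker list was also higher in these arrays, with means of 6.11 to 6.36 against 5.33 to 5.83 in wt BMDM, and its part in the Cat difference was not tested. Between MK2/3-/- and wt BMDM with medium no member passed (limma), where 2.02% of all genes did, 1 member and 16.9% of all genes had an unadjusted p below 0.05, and the t-test of the methods gave 1 member without adjustment and 0 after it. Cat there was higher by 0.63 (adjusted p = 0.105) without overlap of the arrays, and 13% of all genes were likewise higher without overlap. Between MK2/3-/- and MK2-/- BMDM with medium 0 members passed by limma, 0 had an unadjusted p below 0.05 (15% of all genes did) and 0 passed by the methods' t-test, where 2.82% of all genes passed by limma.

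Whether the size of the LPS response differed between genotypes was tested as an interaction, in which a shift that a slide gives to both treatments cancels. In limma 0 members passed in each of the 3 comparisons of responses, where 0% of all genes passed for MK2-/- against wt, 0.678% for MK2/3-/- against wt and 0.0669% for MK2/3-/- against MK2-/- BMDM. Without adjustment, 0, 2 and 3 members had a p below 0.05, beside 7.52%, 11.4% and 8.59% of all genes. The response of Slc7a11 was smaller in MK2/3-/- than in MK2-/- BMDM by log2 -2.24, with a 95% interval of -3.88 to -0.61 (adjusted p = 0.409). That of Txnrd1 gave -1.21 (-2.07 to -0.35, adjusted p = 0.398) and that of Srxn1 gave -1.37 (-2.66 to -0.08, adjusted p = 0.544) in the same comparison, and the interval of Hmox1, at -1.68, ran from -3.41 to 0.05. The response of Cat was -0.81 in MK2/3-/- against wt BMDM (-1.41 to -0.22, adjusted p = 0.218). The intervals are wide, and the missed thresholds do not show that the genotypes responded alike.

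**Figure D3:**
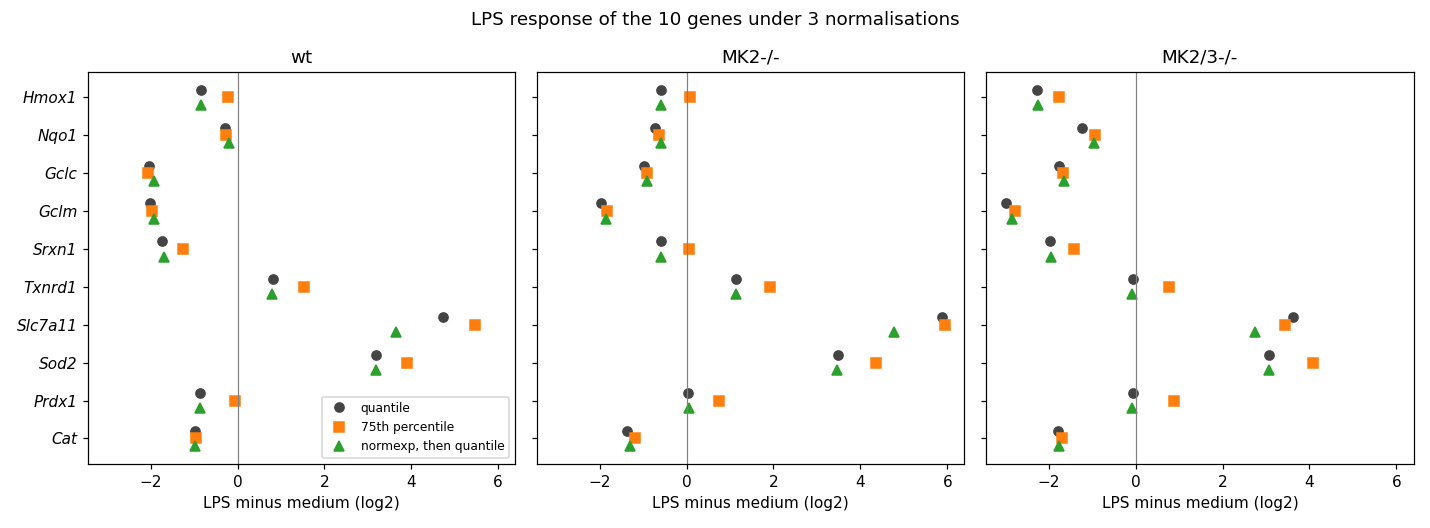
Log2 difference of LPS against medium of each member in the 3 genotypes after quantile normalisation, 75th percentile scaling and normexp background correction with quantile normalisation. Slc7a11, Sod2, Gclm and Cat keep their side of 0 in all 3 genotypes under these settings, and Txnrd1 in MK2/3-/- BMDM moves from -0.07 to 0.77 with 75th percentile scaling.

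The other genes of the pathway were taken as 68 genes in 8 classes. In wt BMDM 13 were higher and 25 lower after LPS, in MK2-/- 14 and 34, and in MK2/3-/- BMDM 12 and 32. Over all genes, 18.6%, 17.5% and 20.2% were higher and 23.5%, 27.1% and 27.9% lower, and these shares are also the background of the class counts that follow. With 75th percentile scaling the counts were 19 and 17, 16 and 21, and 15 and 20, so that higher genes outnumbered lower ones in wt BMDM. Under that scaling higher genes also outnumbered lower ones among all genes called in each genotype. The shares over all genes given here belong to quantile normalisation and are no background for counts under that scaling. Without the MK2-/- arrays of low Y-linked signal, the counts in MK2-/- BMDM were 13 and 28.

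Among 8 regulators of NRF2, 5 were higher and 1 lower in wt, 5 and 1 in MK2-/- and 4 and 2 in MK2/3-/- BMDM, with class medians of 0.80, 0.73 and 0.42. The small Maf genes, whose products pair with NRF2, did not move as one. Maff rose by 2.64, 4.82 and 3.86 in wt, MK2-/- and MK2/3-/- BMDM, and Mafk by 1.89, 1.39 and 2.14, whereas Mafg fell by 1.68 in wt and by 1.26 in MK2/3-/- BMDM and gave 0.15 in MK2-/- BMDM, and its MK2/3-/- call was lost with 75th percentile scaling (-0.66, adjusted p = 0.227), without MK2/3-/- medium array 2 (adjusted p = 0.0574) and with the letter block (adjusted p = 0.0546). On its probe with the highest induction in wt, Mafg passed in neither, with wt BMDM at -0.33 (adjusted p = 0.441) and MK2/3-/- BMDM at -0.34 (adjusted p = 0.403). Nfe2l2, which encodes NRF2 itself, gave 0.07 in wt, 0.19 in MK2-/- and -0.13 in MK2/3-/- BMDM without passing, but with 75th percentile scaling it passed as higher in each genotype, at 0.77, 1.02 and 0.73. Keap1 rose 1.76-fold, 1.55-fold and 2.14-fold. Nfe2l2, Keap1 and Slc3a2 were named for their role in the pathway.

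Of 12 further genes of glutathione synthesis and recycling, 4 were higher and 2 lower in wt, 5 and 4 in MK2-/-, and 4 and 4 in MK2/3-/- BMDM, and the class medians were 0.10, -0.18 and -0.16. These counts depend on the scaling. Glrx2 in MK2/3-/- BMDM was called lower (-0.34, adjusted p = 0.0352) but called higher with 75th percentile scaling (0.60, adjusted p = 0.0167). In wt BMDM it went from -0.21, not called, to 0.63 (adjusted p = 0.0121). Ggct, whose enzyme clears gamma-glutamyl amino acids, rose by 2.67 in wt, 0.95 in MK2-/- and 3.19 in MK2/3-/- BMDM. Its LPS arrays were at 11.90, 11.90 and 11.59 in wt, at 9.52, 9.51, 9.09 and 9.48 in MK2-/- and at 11.89, 12.06, 11.61 and 12.05 in MK2/3-/- BMDM, so that MK2-/- BMDM stood apart. Chac1, whose enzyme degrades glutathione and whose spot was left out on 1 wt LPS array, rose by 2.22, 3.76 and 1.95, but over the alternatives, single arrays left out among them, the adjusted p ran up to 0.197 in wt and to 0.211 in MK2/3-/- BMDM. Gpx1, the cytosolic glutathione peroxidase, fell by 2.08, 2.46 and 2.00.

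Of 14 glutathione S-transferases, 1 was higher and 3 were lower in wt, 1 and 4 in MK2-/- and 1 and 3 in MK2/3-/- BMDM, and the class medians were -0.31, -0.58 and -0.38. The transferase called higher was Gstt1, by 2.68, 2.43 and 2.10, while the microsomal Mgst1 fell by 2.43, 2.50 and 2.48 and Gsto1 by 1.43, 1.56 and 1.41. With 75th percentile scaling Gstm1 (0.64, adjusted p = 0.0065) and Gstm2 (1.07, adjusted p = 0.0352) also passed as higher in wt BMDM. Gstm1 then passed in MK2/3-/- BMDM as well (0.58, adjusted p = 0.0123). With normexp Gstm2 passed in wt BMDM (0.84, adjusted p = 0.0360). Of 12 thioredoxins, peroxiredoxins and reductases, 2 were higher and 6 lower in wt, 2 and 10 in MK2-/- and 2 and 8 in MK2/3-/- BMDM. With 75th percentile scaling the lower ones numbered 4, 5 and 6. Txnip, whose product binds and inhibits thioredoxin, fell by 3.06, 3.18 and 2.75, Msrb1, a methionine sulfoxide reductase, fell by 1.61, 2.03 and 2.42, and Prdx5 rose by 1.87, 1.92 and 2.23.

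Of 7 genes that supply NADPH, 0 were higher and 5 lower in wt, 0 and 6 in MK2-/- and 0 and 6 in MK2/3-/- BMDM, with class medians of -0.93, -1.24 and -1.16, but with 75th percentile scaling the lower ones numbered 1, 2 and 1. Idh1, the cytosolic NADP-dependent isocitrate dehydrogenase, fell by 2.46, 3.26 and 3.52. G6pdx, the entry enzyme of the pentose phosphate pathway, fell by 1.06, 1.24 and 1.08, and Taldo1 of the same pathway by 0.98, 1.19 and 1.42, with G6pdx in wt and MK2/3-/- BMDM and Taldo1 in all 3 genotypes not passing under 75th percentile scaling. Of the superoxide dismutases other than Sod2, Sod1, the cytosolic enzyme, fell by 1.66, 1.17 and 1.33 and did not pass in any genotype under that scaling.

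Among 3 haem breakdown partners of Hmox1, 2 were lower in each genotype. These were the biliverdin reductases Blvra, which fell by 1.11, 1.30 and 1.80, and Blvrb, which fell by 0.65, 0.41 and 0.84 but gave 0.13 in wt and 0.32 in MK2-/- BMDM with 75th percentile scaling, and whose MK2-/- call had an adjusted p of up to 0.147 over the alternatives. Of 10 other reported NRF2 targets, 1 was higher and 5 were lower in wt, 1 and 6 in MK2-/- and 1 and 6 in MK2/3-/- BMDM, and the class medians were -1.06, -1.23 and -0.91. The carbonyl reductase gene Cbr3 fell by 2.82, 3.39 and 3.56 and Trim16, a tripartite motif protein gene whose probe was well above background on 2 of 4 MK2/3-/- LPS arrays, by 2.07, 3.64 and 3.50. Aox1, an aldehyde oxidase gene, was called lower in wt BMDM, but its probe was well above background on 5 of 22 arrays and on none with LPS, so no size of its difference is given.

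**Figure D4:**
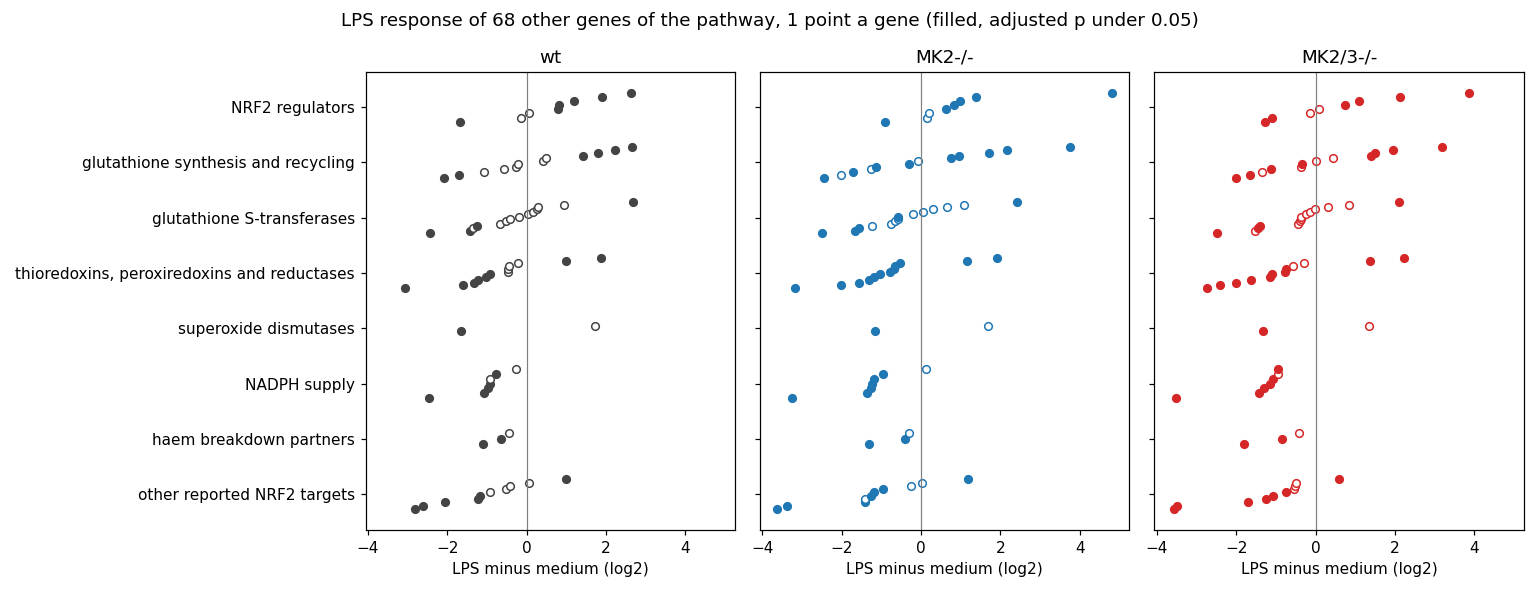
Log2 difference of LPS against medium (x axis) of the 68 other pathway genes in their 8 classes (y axis), in a panel for each genotype, with filled points for an adjusted p below 0.05. Filled points lie on both sides for the NRF2 regulators and on the lower side for the genes that supply NADPH.

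The signals most like those of each member over the 22 arrays were described by Pearson's r, which reflects that all arrays share 6 groups. Slc7a11 was closest to Cxcl3 (r = 0.977), Flrt3 (0.973) and St7 (0.968), and Sod2 to Gch1 (0.993), Isg20 (0.992) and Malt1 (0.991). Gclm was closest to Ufl1 (0.972), Fam160a2 (0.970) and Zfp280c (0.970), Gclc to Angel2 (0.946), Zfand2a (0.942) and Mepce (0.942), and those near Srxn1 included the member Gclc (0.924) and Lats2 (0.911). Cat was closest to Rps3a1 (0.950), Mapk3 (0.933) and Ech1 (0.931), and Hmox1 to Ube2o (0.923), Nop2 (0.911) and Trmt61a (0.899). Txnrd1 had Kpna1 (0.917), Kmt5a (0.852) and Arhgap31 (0.847) as its nearest genes, Prdx1 had Ly6e (0.838), Ddx50 (0.827) and Gpr108 (0.824), and Nqo1 had Eno1b (0.837), S100a6 (0.813) and Eno1 (0.806).

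Among the members themselves, the deviations of arrays from their group means gave a different order than the levels. Srxn1 and Txnrd1 had r = 0.847 for these deviations and 0.054 for the levels over all 22 arrays, and Gclc and Txnrd1 had 0.799 and -0.138. Gclc and Srxn1 had 0.845 and Hmox1 and Srxn1 0.804 for the deviations. Further pairs also varied together, such as Txnrd1 and Slc7a11 (0.747) and Hmox1 and Gclc (0.737). Some pairs did not: for the deviations Gclc and Cat had -0.508, Txnrd1 and Cat -0.349, Sod2 and Cat -0.259, and Gclm and Sod2 0.145. Such r over pairs of all genes was not analysed here.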

How the data were processed

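Total RNA of 22 BMDM cultures was hybridised on 22 one-colour Agilent mouse arrays (Cy3). The authors deposited scanner files of Agilent Feature Extraction 11.0.1.1 with intensity values of 62976 spots per array, of which gProcessedSignal, background-subtracted by that software, was used here. The deposited series matrix holds values, handled here as log2, with column medians of -0.07 to 0.08, to which the authors, per their methods, applied quantile normalisation before expressing each gene relative to its median over the arrays (the log base is not given in the sources used here). They correlated with log2 scanner values, centred per probe, of the same array at r of 0.993 to 0.999 and served as an alternative. Groups came from the GEO labels.

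Log2 signals were quantile normalised over all arrays, with spots marked as non-uniform or population outliers left out (limma 3.58.1, R 4.3.3 and version 1.17.8 of data.table). A probe was kept if Feature Extraction called it well above background on 3 arrays or more. Kept probes with a RefSeq or GenBank accession were named through RefSeq where the accession mapped to a gene. They were reduced to the probe with the highest mean signal of a gene or, without a mapping, of an accession. Of the 22413 genes tested in this sense, 18403 had a symbol, and the others were counted by their accession. A single model of 6 groups was fitted to 22413 genes (lmFit, eBayes), Benjamini-Hochberg adjusted over all genes tested. Calls are an adjusted p below 0.05. The procedure was tested on simulated data. The methods call the replicates independent experiments and the labels give ages but no animals, so p-values measure the spread between these arrays, whose number of 3 or 4 a group limits precision. No spot of these probes was saturated.

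Members and gene lists were chosen with earlier results of these data known. Named pathway genes are up to 3 per class with the largest wt change among those called in wt, and any called in an interaction. Glrx2, Gstm1 and Gstm2 are named for calls that changed with 75th percentile scaling, as those of other class genes also did. The 3 genes of highest r were named as most alike, except 1 that is not reported here. Alternatives were 75th percentile scaling, normexp (offset 50), the authors' processed values, no filter on dim features, marked spots kept, all features, another probe, the methods' t-test, only the groups compared, array weights, replicate blocks and leaving out arrays. The letter as a fixed block and leaving out both wt arrays numbered 1 were chosen after seeing the data. The study's methods used a t-test and the probe with the strongest induction.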

Additional observations from a re-analysis of the deposited data

Results flagged for a closer look

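Of 40 gene and group combinations with 4 arrays, 4 held an array far from the other three, and chance gives about 5% of such groups. Srxn1 was 13.50 on MK2-/- medium array 3, where the nearest other array was at 14.03. Txnrd1 was 12.99 on wt medium array 3, with the nearest at 13.84, and its LPS call in wt is lost without that array. Sod2 was 14.68 on MK2-/- medium array 3, with the nearest at 15.02, and Cat was 9.75 on MK2/3-/- LPS array 2, with the nearest at 10.33. The MK2-/- array 3 of Srxn1 and Sod2 is also an array of low Y-linked signal.

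The LPS response of Ggct, a pathway gene outside the 10 members, was larger in MK2/3-/- than in MK2-/- BMDM by log2 2.24 ± 0.36 SE (adjusted p = 0.0252), since Ggct rose by 0.95 in MK2-/- and by 3.19 in MK2/3-/- BMDM. It was the 1 gene of the 68 to pass in an interaction. The call was lost under 12 of 36 alternatives, among them the fit of only the groups compared (adjusted p = 0.0738) and leaving out MK2-/- LPS array 1 (adjusted p = 0.0553), and adjusted p ran from 0.00022 to 0.219 over the alternatives.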

How the results depend on the processing

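Of 24 called values of members, 24 kept their direction and 15 their call under every alternative run. The counts of members below stand without the share of all genes called under the same setting. They show only how the calls moved. For MK2-/- against wt BMDM with LPS, normexp gave 2 members, the unadjusted t-test 2, array weights 3, and leaving out both wt arrays numbered 1, an alternative chosen after seeing the data, 1. For MK2/3-/- against wt with LPS (1 member), normexp gave 2, and the most induced probe, the adjusted t-test, only the groups compared, array weights, leaving out the low Y-linked arrays and leaving out both wt arrays numbered 1 gave 0. For MK2/3-/- against MK2-/- with LPS (3 members), the unadjusted t-test gave 6, the adjusted t-test 1, only the groups compared 1, array weights 6, and leaving out both wt arrays numbered 1 gave 5. In that comparison 28.3% of all genes had an unadjusted p below 0.05 in limma. In medium, the most induced probe gave 0 for MK2-/- against wt, and the unadjusted t-test and array weights gave 1 for MK2/3-/- against wt. For the LPS response of MK2/3-/- against wt, array weights gave 1, Cat (-0.94, adjusted p = 0.0443). Leaving out single arrays gave 6 to 8 members in wt, 5 to 6 in MK2-/- and 7 in MK2/3-/- BMDM, and 0 to 1, 0 to 2 and 1 to 6 in the comparisons of genotypes with LPS. Directions turned for these values, and the cause was not tested. Nqo1 in wt was 0.094, 0.22 and 0.28 without wt LPS array 2, LPS array 3 and medium array 1 (range over single arrays -1.16 to 0.28). In MK2-/- BMDM, Hmox1 was 0.079 and Srxn1 0.066 with 75th percentile scaling, and Prdx1 ran from -0.017 to 0.14 over single arrays left out. In MK2/3-/- BMDM, Txnrd1 was 0.77 (75th percentile), 0.022 (authors' values), 0.095 (array weights), 0.063 (letter block) and -0.24 to 0.063 (single arrays), and Prdx1 was 0.89 (75th percentile), 0.095 (authors' values), 0.033 (letter block) and -0.32 to 0.18 (single arrays). Mafg in MK2-/- ran from -0.030 to 0.35 over single arrays. Blvrb was 0.13 in wt and 0.32 in MK2-/- with 75th percentile scaling, and Aox1 in MK2/3-/- was 0.11 with normexp. Nfe2l2 in wt was -0.037 (array weights), -0.20 without both wt arrays numbered 1 and -0.12 to 0.21 over single arrays, and it was 0.73 in MK2/3-/- with 75th percentile scaling. Slc3a2 in MK2/3-/- was -0.011 (normexp) and -0.043 to 0.088 (single arrays). The labels do not say that LPS and medium arrays share a mouse, and 7 of 10 pairs by GEO number and 7 of 10 by array letter had r above 0.1, the lowest -0.085, so pairing was not assumed. Labelled ages were equal in 8 of 10 pairs by number and 10 of 10 by letter, and both MK2-/- arrays numbered 3 had low Y-linked signal. With the number as a replicate block within genotype, 7, 5 and 8 members passed in wt, MK2-/- and MK2/3-/- BMDM, adding Nqo1 in MK2/3-/- (-1.16, adjusted p = 0.0137), and 0 in interactions. With the array letter as a random block 8, 6 and 7 passed, and as a fixed block 7, 7 and 8, adding Nqo1 and Gclc in MK2-/- (Gclc adjusted p = 0.0497) and Nqo1 in MK2/3-/-, and 0 in interactions. The t-test is not defined for interactions, and the fixed blocks were not run between genotypes. Array signal well above background on 61.1% to 82.8% of probes limits dim genes such as Slc7a11 in medium.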
